A study of Danio rerio with 9 samples.

Results

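Cytochrome P450 enzymes are heme monooxygenases that insert one oxygen atom into steroids, fatty acids, vitamins and foreign compounds. Enzymes of families 2, 3 and 4 sit in the membrane of the endoplasmic reticulum and take their electrons from NADPH-cytochrome P450 reductase, in part through cytochrome b5. In vertebrates, families 2 and 3 hold most enzymes that oxidize drugs and pollutants, and family 4 enzymes hydroxylate the far end of fatty acids and eicosanoids. The vertebrate kidney uses members of families 2 and 4 to turn arachidonic acid into epoxides and hydroxy acids, and several of these enzymes differ between the sexes in rodents.

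The genes described here are every row of the count table whose symbol begins with *cyp2*, *cyp3* or *cyp4* followed by a letter. They number 52 of the 30628 genes listed, with 43 in family 2, 5 in family 3 and 4 in family 4, in 17 subfamilies. To ask how the sexes differ, the study sequenced kidney RNA of 12-month-old zebrafish of the WIK strain, as 4 male libraries and 5 female ones. All fish were labelled wild type, the methods of the study name 5 sets of kidneys harvested for each sex, and no treatment was given. Which kidneys went into each library is not stated, so the p-values measure the spread between these libraries. The male libraries are called M1, M2, pkd1M1 and pkd1M4 in the table and the female libraries F1, F2, F3, F4 and F6.

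Several libraries stand apart before any gene is compared. The column names of pkd1M1 and pkd1M4 carry pkd1 beside the mark for wild type, so the calls of P450 and pathway genes are also given without this pair. Library F1 had a summed level of 1406 CPM (counts scaled to a common library size with edgeR's TMM factors) over 8 oocyte genes, against 4.08 to 72.1 CPM in the other female libraries. Library pkd1M4 had 1895 CPM over 12 hepatocyte genes, against 103 to 191 CPM in the other male libraries and 208 to 1171 CPM in female libraries. One of them, *tfa*, made up most of the sum in every female library, at 176 to 949 CPM. It had 741 CPM in pkd1M4 and 0.824 to 11.4 CPM in the other male libraries. Total estimated counts ran from 24902978 to 52986838 in male libraries and from 30714070 to 38758188 in female libraries.

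The filter on low counts kept 45 of the 52 P450 genes, and 18 had at least 100 estimated counts in every library. The sexes were compared over all 22148 genes kept, by the quasi-likelihood test of edgeR with p-values adjusted after Benjamini and Hochberg, and a log2 fold change above 0 means more in males. Past both thresholds of the study, an adjusted p under 0.05 and a log2 fold change beyond 1.5 in size, 3 P450 genes were higher in males (6.67% of 45, against 3.48% of all genes tested) and 1 was lower (2.22%, against 3.06%). By adjusted p alone, 5 were higher (11.1%, against 7.02%) and 1 was lower (2.22%, against 6.2%). The genes that rose were *cyp2p7*, *cyp2n13*, *cyp2p6*, *cyp2ad3* and *cyp4t8*, and the gene that fell was one of the rows named *cyp2k6*.

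The log2 fold change was above 0 in 29 of the 45 tested (64.4%, against 48.2% of all genes tested), with a median of 0.39, against -0.03 over all genes. All male libraries lay above all female ones in 6 of the 45 (13.3%, against 8.42% of all genes), and below in 2 (4.44%, against 8.06%). Summed over all 52 genes, the level was 1638, 1556, 2212 and 1677 CPM in M1, M2, pkd1M1 and pkd1M4, against 939, 695, 1020, 555 and 1591 CPM in F1, F2, F3, F4 and F6. The lowest male library and F6 thus overlapped. In estimated counts, with no step for length added here, *cyp2k22* and *cyp4t8* made up 49.0% to 72.4% of that sum in male libraries. In female libraries they made up 22.9% to 54.7%.

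**Figure D1:**
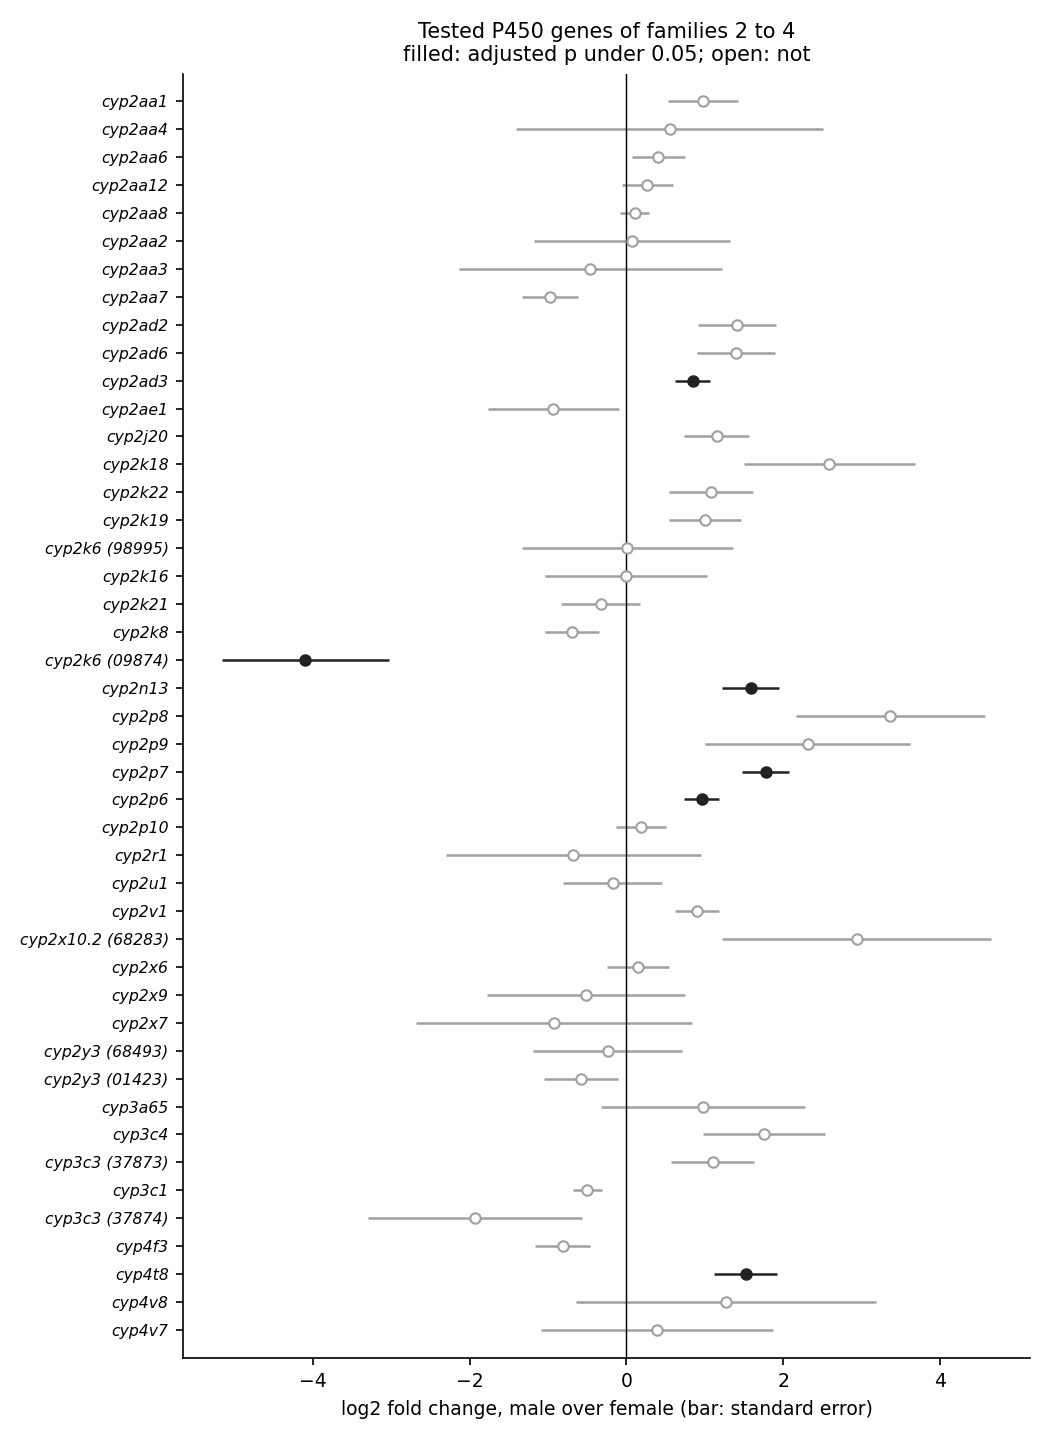
Log2 fold change (male over female, x axis) with its standard error for the 45 P450 genes tested, grouped by subfamily. Filled points have an adjusted p under 0.05, and rows that share a symbol carry the last 5 digits of their identifier. The 5 filled points right of 0 lie between 0.85 and 1.78, and the filled point left of 0 is *cyp2k6* at -4.10.

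Of the 52 genes, 45 lie in 8 clusters on a chromosome, counting neighbours up to 500 kb apart, and 7 stand alone. Of the 5 genes that rose, 4 lie in a cluster of 11 genes on chromosome 20, from 25515259 to 25615802 in GRCz11. It holds *cyp2n13*, *cyp2ad6*, *cyp2v1*, *cyp2ad2*, *cyp2ad3*, *cyp2p6*, *cyp2p7*, *cyp2p8*, *cyp2p9*, *cyp2p10* and *cyp2j20* in this order. These subfamilies are the fish relatives of mammalian CYP2J, whose enzymes convert arachidonic acid to epoxides that dilate vessels and act on salt transport in mammals.

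All 11 cluster genes were tested and all had a log2 fold change above 0, with a median of 1.40. Of them, 4 passed the adjusted p (36.4%, against 7.02% of all genes), and 2 also passed the fold threshold. An unadjusted p under 0.05 was found in 9 (26.8% of all genes), and DESeq2, run as an alternative, called 9 higher (9.75% of all genes). The cluster is described apart as the one that holds most P450 genes that rose, so these shares are not independent of that choice. Several of its genes also have overlapping spans, so their values may not be independent. The summed level of the 11 genes was 452, 413, 364 and 485 CPM in the male libraries M1, M2, pkd1M1 and pkd1M4. In the female libraries F1, F2, F3, F4 and F6 it was 160, 179, 216, 153 and 245 CPM. The sexes did not overlap in this sum, and the male median was 2.42 times the female median. Of the 15 other genes tested within 200 kb of the cluster, 10 had a log2 fold change above 0 (48.2% of all genes), with a median of 0.46. By adjusted p alone 1 rose, 4 had an unadjusted p under 0.05, and DESeq2 called 3 higher. In 2 of these neighbours all male libraries lay above all female ones (8.42% of all genes).

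The gene *cyp2p7* had 38.5, 38.5, 47.1 and 73.5 CPM in M1, M2, pkd1M1 and pkd1M4, against 19.5, 15.9, 12.3, 7.45 and 16.9 CPM in F1, F2, F3, F4 and F6. Every male library was above every female library, with pkd1M4 highest and F4 lowest. This is a log2 fold change of 1.78 ± 0.30 (SE), with an edgeR adjusted p of 0.00434. The call held in each of the 9 fits that left out 1 library (highest adjusted p 0.0135). It was lost without both pkd1-named males (log2 fold change 1.42, edgeR adjusted p = 0.0624).

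Next to it, *cyp2p6* had 70.3, 80.5, 134 and 90.3 CPM in the male libraries, against 40.3, 45.9, 53.4, 40.6 and 60.9 CPM in the female libraries. Again the sexes did not overlap, and pkd1M1 was the highest library. In log2 the fold change was 0.96 ± 0.22 (SE) with an edgeR adjusted p of 0.0175, and all 9 fits without 1 library kept the call (highest adjusted p 0.0483). Its fold is below the threshold of the study, so it counts by adjusted p alone. The call was lost without both pkd1-named males (log2 fold change 0.64, edgeR adjusted p = 0.165).

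At the start of the cluster, *cyp2n13* had 121, 73.2, 29.8 and 67.8 CPM in male libraries, against 15.2, 24.4, 32.8, 19.1 and 30.0 CPM in female libraries. One male library, pkd1M1, lay within the female range, and M1 was the highest of all. Its log2 fold change was 1.59 ± 0.36 (SE) with an edgeR adjusted p of 0.0175. Without M1 it was 1.23 with an adjusted p of 0.0533.

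The fourth gene of the cluster that rose, *cyp2ad3*, had 55.9, 66.7, 39.2 and 67.1 CPM in male libraries, against 30.5, 22.4, 41.8, 29.5 and 34.8 CPM in female libraries. The library pkd1M1 lay below F3, and the other male libraries lay above every female one. The log2 fold change was 0.85 ± 0.22 (SE) with an edgeR adjusted p of 0.0315. The adjusted p was 0.0649 to 0.0854 without M1, M2, pkd1M4, F1, F2 or F4, so that 3 of 9 fits kept the call. With both pkd1-named males left out, the edgeR adjusted p was 0.0817.

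**Figure D2:**
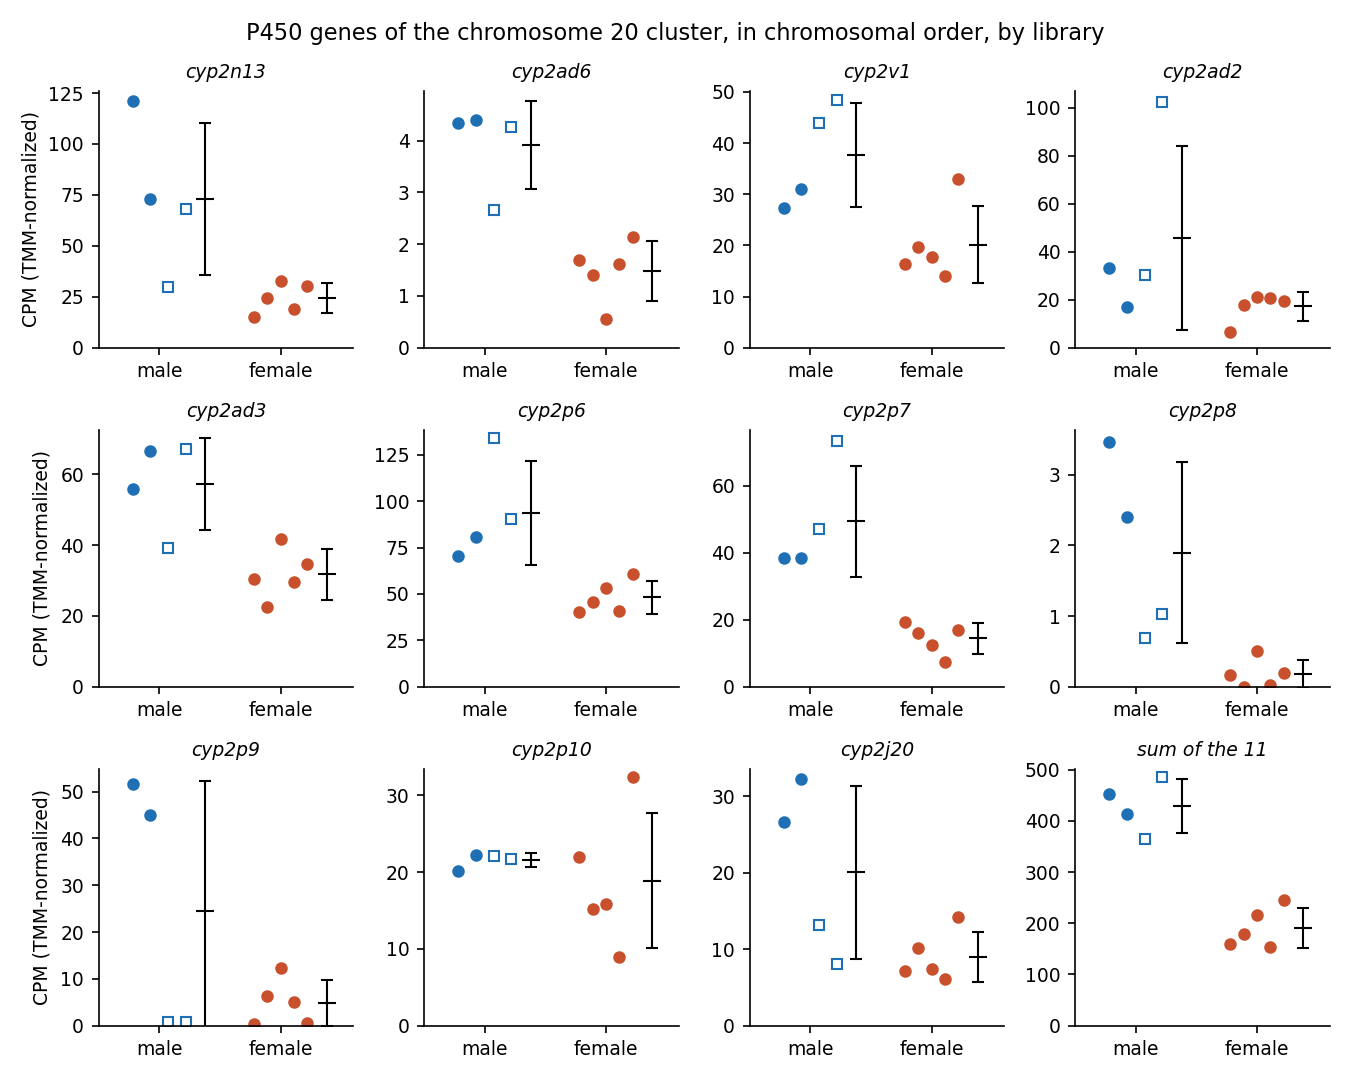
Level of each gene of the chromosome 20 cluster and of their sum in each library (TMM-normalized CPM, y axis), male left and female right. Filled circles are libraries, open squares the male libraries named with pkd1, and bars the mean ± SD over 4 male and 5 female libraries, drawn down to 0 at most. In the sum, male libraries lie between 364 and 485 CPM and female libraries between 153 and 245 CPM.

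The other 7 genes of the cluster did not pass the adjusted p. The gene *cyp2v1* had 27.2, 31.0, 43.9 and 48.5 CPM in males, against 16.4, 19.7, 17.6, 14.1 and 33.0 CPM in females, where F6 was within the male range. Its log2 fold change was 0.90 (edgeR adjusted p = 0.0598), and it was 1.15 without F6 (adjusted p = 0.00976). For *cyp2ad2* the levels were 33.2, 17.1, 30.4 and 102 CPM in males, against 6.54, 17.7, 21.2, 20.9 and 19.5 CPM in females. The library pkd1M4 stood above all others, M2 lay within the female range, and the log2 fold change was 1.41 (edgeR adjusted p = 0.0932).

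The gene *cyp2ad6* had 4.34, 4.40, 2.65 and 4.27 CPM in males, against 1.70, 1.41, 0.557, 1.62 and 2.14 CPM in females. The sexes did not overlap, at a log2 fold change of 1.40 (edgeR adjusted p = 0.0934). For *cyp2p8* the estimated counts were 80, 72, 32 and 31 in males, against 6, 0, 21, 1 and 6 in females. These did not overlap either, at a log2 fold change of 3.37 ± 1.205 (SE, edgeR adjusted p = 0.0967).

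The gene *cyp2p9* separated the male libraries from each other: it had 51.7 and 45.0 CPM in M1 and M2, 0.748 and 0.734 CPM in pkd1M1 and pkd1M4, against 0.278, 6.23, 12.3, 5.13 and 0.601 CPM in females. Libraries of both sexes were near 0 and its adjusted p was 0.300 (edgeR, log2 fold change 2.32). At the end of the cluster, *cyp2j20* had 26.6, 32.3, 13.2 and 8.04 CPM in males, against 7.13, 10.21, 7.41, 6.08 and 14.2 CPM in females. Here too M1 and M2 were above the male libraries named with pkd1, which fell within the female range (log2 fold change 1.15, edgeR adjusted p = 0.101). The gene *cyp2p10* had 20.2 to 22.2 CPM in males, a narrow range, against 9.001 to 32.3 CPM in females, with a log2 fold change of 0.19 (edgeR adjusted p = 0.769).

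Among the 45 genes tested, M1 and M2 were both above the pkd1-named male libraries in 7 and both below them in 14, against 15.3% and 15.2% of all genes tested. The first count was near its share over all genes and the second was above it. Without the pkd1-named males, 2 P450 genes passed the adjusted p, *cyp2n13* (edgeR adjusted p = 0.0193) and *cyp2j20* (0.0379), both higher in males. Without M1 and M2 instead, *cyp2p6* (0.0264) and *cyp2p7* (0.0144) passed. Both fits have 2 male libraries, and no P450 gene passed in both. Over all genes the calls fell as well. By adjusted p, 538 were higher and 321 lower without the pkd1-named males, and 832 and 757 without M1 and M2. With all libraries they were 1554 and 1374.

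In GRCz11 the span of *cyp2p7* overlaps those of *cyp2p8*, *cyp2p9*, *cyp2p10* and *cyp2j20*, and the span of *cyp2v1* overlaps those of *cyp2ad6*, *cyp2ad2* and *cyp2ad3*. In all, 15 P450 genes have a span that overlaps that of another. Reads that fit several transcripts are divided among them by estimation, and whether this moved the values of single genes was not tested.

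Marker genes of the kidney tubule and of myeloid cells also differed between the sexes. Of 7 genes listed for the distal tubule, all 6 tested rose by adjusted p, against 7.02% of all genes. They were *slc12a1*, *slc12a3*, *clcnk*, *kcnj1a.1*, *gata3* and *trpm7*, of which *trpm7* is used in zebrafish to mark the proximal straight tubule. The 7 summed to 1091 to 1825 CPM in males, against 385 to 905 CPM in females. Within that sum *trpm7* had 239 to 607 CPM in males, against 91.0 to 167 CPM in females. The untested *stc1* was at or near 0 in both sexes. Of 10 proximal tubule markers, none of them at 0, 1 rose (*slc13a3*, 7.02% of all genes did) and none fell (6.2%). Their sums were 3004 to 4167 CPM in males, against 1386 to 4638 CPM in females. The highest proximal tubule sum was that of F6. Of 5 myeloid markers 3 fell (*spi1b*, *lcp1* and *mpeg1.1*), against 6.2% of all genes. Myeloid sums were 2002 to 3863 CPM in males, against 3500 to 6026 CPM in females. In bulk kidney RNA, fewer cells of a type and less RNA per cell cannot be told apart, and the part of these cell types in the P450 differences was not tested.

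Outside chromosome 20, the family 4 gene *cyp4t8* rose. Its subfamily is found in fish and other lower vertebrates, and family 4 enzymes as a rule hydroxylate fatty acids. It lies on chromosome 16 from 4615661 to 4640578 (GRCz11) and had 351, 517, 1005 and 373 CPM in M1, M2, pkd1M1 and pkd1M4. The female libraries F1, F2, F3, F4 and F6 had 264, 121, 248, 89.9 and 253 CPM, so the sexes did not overlap. This is a log2 fold change of 1.52 ± 0.40 (SE) with an edgeR adjusted p of 0.0318. The call held in 5 of 9 fits. The adjusted p was 0.0578 without M2, 0.0977 without pkd1M1, 0.0721 without F2 and 0.05001 without F4. The log2 fold change was 1.08 without pkd1M1. With both pkd1-named males left out, it was 1.15 (edgeR adjusted p = 0.185).

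The other family 4 genes did not pass the adjusted p. The gene *cyp4f3*, of a subfamily whose human members inactivate leukotriene B4, had 18.8, 22.9, 27.7 and 8.37 CPM in males, against 33.3, 38.3, 33.7, 18.3 and 47.5 CPM in females (log2 fold change -0.81, edgeR adjusted p = 0.171). All but F4 of the female libraries were above every male library. The low-count *cyp4v7* and *cyp4v8*, both paired with human CYP4V2 in the name table, a fatty acid hydroxylase mutated in a retinal dystrophy, had 7 to 280 and 0 to 105 estimated counts in males, against 0 to 171 and 0 to 69 in females.

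**Figure D3:**
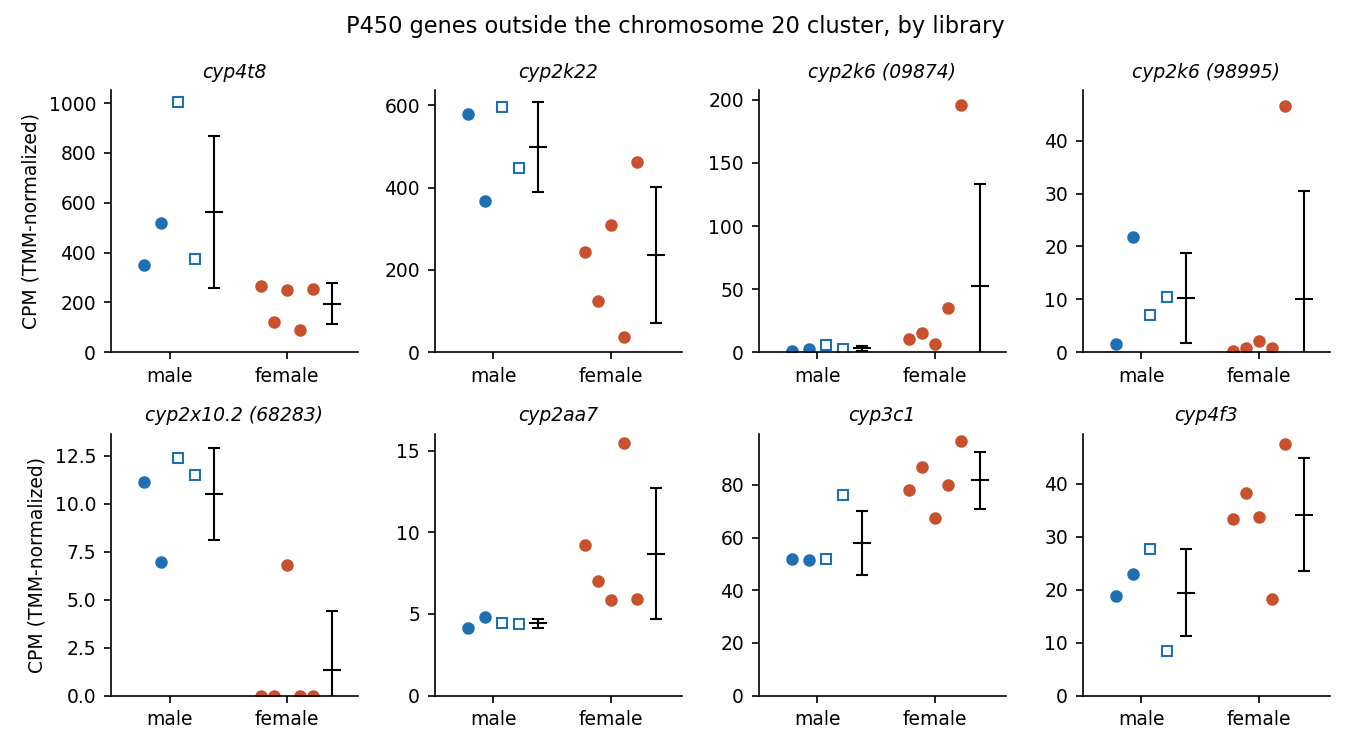
Level of 8 P450 genes outside the chromosome 20 cluster in each library (TMM-normalized CPM, y axis), male left and female right. Filled circles are libraries, open squares the male libraries named with pkd1, and bars the mean ± SD over 4 male and 5 female libraries, drawn down to 0 at most. For *cyp4t8* the male libraries start at 351 CPM and the highest female library has 264 CPM, while F6 alone reaches 196 CPM in the first *cyp2k6* row.

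The fish subfamily *cyp2k* holds the gene that fell and *cyp2k22*, which was not called. On chromosome 3 from 8261132 to 8272632 (GRCz11), the row named *cyp2k6* with identifier ENSDARG00000009874, called *cyp2k31* in the name table, had 1.21, 2.67, 5.58 and 2.77 CPM in the male libraries M1, M2, pkd1M1 and pkd1M4. In F1, F2, F3, F4 and F6 it had 10.8, 15.0, 6.56, 35.2 and 196 CPM. Every male library was below every female library, and F6 was far above the other females. In log2 the fold change was -4.10 ± 1.07 (SE) with an edgeR adjusted p of 0.0298. Without F6 it was -2.46 (adjusted p = 0.0237), and the adjusted p was 0.0820, 0.0771, 0.0561 and 0.0830 without M1, M2, pkd1M1 and pkd1M4 in turn. With both pkd1-named males left out, the edgeR adjusted p was 0.162.

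Its neighbour *cyp2k22*, from 8229466 to 8246315, had 580, 368, 597 and 448 CPM in males, against 245, 125, 309, 37.4 and 462 CPM in females. The female libraries differed more among themselves than the males, with F6 within the male range, and the log2 fold change was 1.08 ± 0.54 (SE, edgeR adjusted p = 0.234). The 2 neighbours thus had fold changes of opposite sign in the same libraries, and only the *cyp2k6* row passed the test.

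A second *cyp2k* cluster holds 8 genes on chromosome 3 from 12710350 to 12826387 (GRCz11). No gene passed in edgeR among the 6 tested (7.02% of all genes rose and 6.2% fell). At an unadjusted p under 0.05 there was 1 (26.8% of all genes), *cyp2k18*, which DESeq2 called higher (9.75% of all genes). The other row named *cyp2k6*, ENSDARG00000098995, had 1.604, 21.8, 6.94 and 10.4 CPM in males, against 0.223, 0.818, 2.06, 0.866 and 46.7 CPM in females. F6 alone held nearly all of the female signal, and the log2 fold change was 0.01 with it and 3.36 without it (edgeR adjusted p = 0.0275). Likewise *cyp2k18* had 3.25, 24.0, 3.70 and 22.6 CPM in males, against 1.56, 0.620, 0.0242, 1.75 and 7.18 CPM in females, with a log2 fold change of 2.59 (edgeR adjusted p = 0.154) and of 3.75 without F6 (0.0434).

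Of the rest of this cluster, *cyp2k19* had 5.62 to 40.4 CPM in males, against 6.86 to 14.6 CPM in females, *cyp2k8* had 9.45 to 20.6 CPM, against 16.2 to 43.2 CPM, *cyp2k16* had 0.910 to 6.80 CPM, against 0.0456 to 13.6 CPM, and *cyp2k21* had 0.855 to 3.37 CPM, against 2.26 to 3.84 CPM. F6 was the highest female library in all of these. Over all 45 P450 genes tested, F6 was the highest female library in 25, and the share over all genes was not computed. F6 also had the highest female sums of the genes listed for the proximal tubule (4638 CPM) and the distal tubule (905 CPM). The genes *cyp2k17* and *cyp2k20* were too low to test, with 0 to 82 and 0 to 31 estimated counts in males, against 0 to 9 and 0 to 13 in females.

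The *cyp2aa* subfamily, another fish expansion, fills most of a cluster of 11 genes on chromosome 23 from 42292748 to 42666469 (GRCz11) that also holds *cyp2ae1*. None of its 9 genes tested passed the adjusted p in edgeR (7.02% of all genes rose and 6.2% fell) or DESeq2 (9.75% and 9.11%). Of the 9, 1 had an unadjusted p under 0.05 (26.8% of all genes did), and their median log2 fold change was 0.10. The summed level of the 11 was 55.6 to 67.2 CPM in males, against 48.1 to 71.2 CPM in females, an overlap of both ranges. The gene *cyp2aa7* had 4.12, 4.80, 4.42 and 4.37 CPM in males, against 9.21, 6.99, 5.84, 15.4 and 5.95 CPM in females. Its male libraries were below every female library at a log2 fold change of -0.97 ± 0.36 (SE, edgeR adjusted p = 0.105).

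The neighbour *cyp2aa8*, whose span overlaps that of *cyp2aa7*, had 18.9 to 21.8 CPM in males, against 15.6 to 22.3 CPM in females, at a log2 fold change of 0.10. The genes *cyp2aa12* and *cyp2aa6* also overlapped, with 11.1 to 19.8 and 8.91 to 20.7 CPM in males, against 7.38 to 19.3 and 6.46 to 13.3 CPM in females. For *cyp2aa1* the level was 4.73 to 8.74 CPM in males, against 1.84 to 6.98 CPM in females, at a log2 fold change of 0.98 (edgeR adjusted p = 0.196), and of 1.43 without F6 (0.0372). The remaining genes of the cluster were low: *cyp2aa2*, *cyp2aa3*, *cyp2aa4* and *cyp2ae1* had 0 to 85 estimated counts in males, against 0 to 145 in females. The untested *cyp2aa9* and *cyp2aa11* had at most 10 counts in males, against at most 29 in females.

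On chromosome 3 from 40936094 to 40976582 (GRCz11), 4 rows of the fish subfamily *cyp3c* lie together. None passed the adjusted p in edgeR (7.02% of all genes rose and 6.2% fell) or DESeq2 (9.75% and 9.11%). Of the 4, 2 had an unadjusted p under 0.05 (26.8% of all genes did). The gene *cyp3c1* had 52.0, 51.5, 52.0 and 76.2 CPM in males, against 78.1, 86.7, 67.3, 80.0 and 96.8 CPM in females. Of the male libraries, pkd1M4 alone reached the female range, and the log2 fold change was -0.50 ± 0.18 (SE, edgeR adjusted p = 0.105). Without pkd1M4 it was -0.66 (adjusted p = 0.0422). The gene *cyp3c4* had 28.9, 3.80, 3.68 and 39.5 CPM in males, against 2.09, 2.09, 5.86, 12.3 and 5.64 CPM in females, at a log2 fold change of 1.76 ± 0.78 (SE, edgeR adjusted p = 0.179).

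In *cyp3c4* the high male libraries were M1 and pkd1M4, and M2 and pkd1M1 lay within the female range. The row named *cyp3c3* with identifier ENSDARG00000037873 had 2.37 to 10.004 CPM in males, against 1.72 to 6.86 CPM in females. The row with identifier ENSDARG00000037874, called *cyp3c2* in the name table, had 0 to 2.201 CPM in males, against 0.339 to 5.02 CPM in females. The fifth family 3 gene, *cyp3a65*, is a fish relative of human CYP3A4, the chief drug-oxidizing P450 of human liver and gut. It had 5, 0, 18 and 143 estimated counts in males, against 24, 41, 19, 14 and 24 in females, with pkd1M4 alone above the female range. This male library had the highest hepatocyte sum. It was also the highest male library for the intestinal genes *fabp2* (46.9 CPM), *rbp2a* (30.9 CPM) and *cdx1b* (5.37 CPM), but not for *slc15a1b* or *vil1*. A link of either to *cyp3a65* was not tested.

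On chromosome 7 a row named *cyp2x10.2* with identifier ENSDARG00000068283, called *cyp2x10.1* in the name table, lies from 52093291 to 52096498 (GRCz11). It had 257, 209, 579 and 345 estimated counts in M1, M2, pkd1M1 and pkd1M4, against 0, 0, 280, 0 and 0 in F1, F2, F3, F4 and F6. In normalized levels every male library, at 11.1, 6.97, 12.4 and 11.5 CPM, was above F3, the highest female, at 6.78 CPM. With F3 in the fit the adjusted p was 0.317 (edgeR, log2 fold change 2.94), and without it 0.000809. The male mean of 10.5 CPM was at least 125-fold higher than the level that 3 counts in each of the 4 female libraries at 0 would give. Both this fold and the fit without F3 leave out a library because of its value, so neither compares the sexes as groups. Estimated counts were above 0 in all 4 male libraries and in 1 of 5 female libraries. Whether reads were divided between this row and another row of the same symbol was not tested.

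The other row named *cyp2x10.2*, ENSDARG00000006501, showed counts of 0 in every male library, against 40, 0, 37, 14 and 0 in F1, F2, F3, F4 and F6, and was too low to test. Both rows carry 1 symbol in the table and lie in 1 cluster of 3, and only F3 had counts in both. The third gene, *cyp2x12*, and *cyp2x8* of a cluster on chromosome 25 were at 0 in all 9 libraries. On chromosome 25, *cyp2x6* had 3.69 to 8.27 CPM in males, against 2.40 to 8.12 CPM in females. Its neighbours *cyp2x7* and *cyp2x9* had 0 to 126 estimated counts in males, against 0 to 167 in females.

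The remaining genes did not pass the adjusted p. The rows named *cyp2y3* overlap each other on chromosome 15, where ENSDARG00000101423 had 8.73 to 32.8 CPM in males, against 11.6 to 57.9 CPM in females, and ENSDARG00000068493 had 5 to 65 estimated counts, against 11 to 75. The gene *cyp2r1*, whose human counterpart is the vitamin D 25-hydroxylase of the liver, had 8, 1, 53 and 61 estimated counts in males, against 219, 14, 0, 1 and 18 in females. In that gene F1 was above all other libraries. The gene *cyp2u1*, whose human counterpart hydroxylates long-chain fatty acids, had 25 to 99 estimated counts in males, against 55 to 75 in females.

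P450 enzymes of the endoplasmic reticulum depend on electron donors, and 10 genes for reductases, cytochrome b5 and related heme proteins were read from the same fit. Of these, 2 rose by adjusted p (7.02% of all genes) and by both thresholds (3.48%), 4 rose by DESeq2 (9.75%), none fell in either test, and the median log2 fold change of the 10 was 0.37, against -0.03 over all genes. The reductase gene *porb* had 219, 395, 387 and 218 CPM in M1, M2, pkd1M1 and pkd1M4, against 104, 63.8, 86.9, 60.3 and 132 CPM in F1, F2, F3, F4 and F6. Every male library was above every female library, at a log2 fold change of 1.77 ± 0.29 (SE, edgeR adjusted p = 0.00365).

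In mammals *cyb5b* encodes the cytochrome b5 of the outer mitochondrial membrane, and *cyb5a* that of the endoplasmic reticulum. Here *cyb5b* had 99.4, 119, 159 and 100.9 CPM in males, against 16.5, 26.5, 34.4, 42.4 and 20.5 CPM in females. The sexes were far apart, at a log2 fold change of 2.09 ± 0.29 (SE, edgeR adjusted p = 0.00141). The second reductase gene, *pora*, had 53.0, 60.9, 57.3 and 75.3 CPM in males, against 46.7, 44.3, 45.8, 43.8 and 41.2 CPM in females. It did not overlap either, at a smaller log2 fold change of 0.47 ± 0.15 (SE, edgeR adjusted p = 0.0653). For *cyb5a* the level was 52.5 to 92.0 CPM in males, against 52.3 to 63.9 CPM in females, an overlap. Without the pkd1-named males, *porb* and *cyb5b* kept their calls (edgeR adjusted p = 0.0308 and 0.0224).

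Of 19 enzymes of eicosanoid and epoxide metabolism matched, 16 were tested, none rose (7.02% of all genes did) and 3 fell (6.2%), where DESeq2 called 1 higher (9.75%) and 6 lower (9.11%). The median log2 fold change of the 16 was -0.56. The soluble epoxide hydrolase gene *ephx2*, whose enzyme turns fatty acid epoxides into diols, had 29.6, 23.5, 23.4 and 12.04 CPM in males, against 169, 188, 247, 210 and 86.5 CPM in females. The highest male library was below the lowest female library, F6, at a log2 fold change of -3.03 ± 0.35 (SE, edgeR adjusted p = 0.000753). The second epoxide hydrolase, *ephx1*, had 14.5 to 33.6 CPM in males, against 15.1 to 24.4 CPM in females, an overlap.

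The lipoxygenase gene *alox12* fell too, with 48.7, 42.4, 41.5 and 31.1 CPM in males, against 73.2, 80.1, 95.3, 68.3 and 86.9 CPM in females (log2 fold change -0.98 ± 0.18, SE, edgeR adjusted p = 0.00618). Every male library was below every female one. The 5-lipoxygenase gene *alox5b.1* was at 0 in all 4 male libraries, against 1.09, 1.61, 1.09, 3.21 and 0.200 CPM in females (edgeR adjusted p = 0.0131). This gene passed the filter on low counts through female libraries alone, so its call rests on the group where it is high. It was not tested in the fits without F1, F2, F3 or F4. Its level was at least 14.6-fold lower in males, setting each male library at 3 counts. Without the pkd1-named males the edgeR adjusted p was 0.0760 for *alox12* and 0.0732 for *alox5b.1*, both above 0.05, and 0.0166 for *ephx2*.

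**Figure D4:**
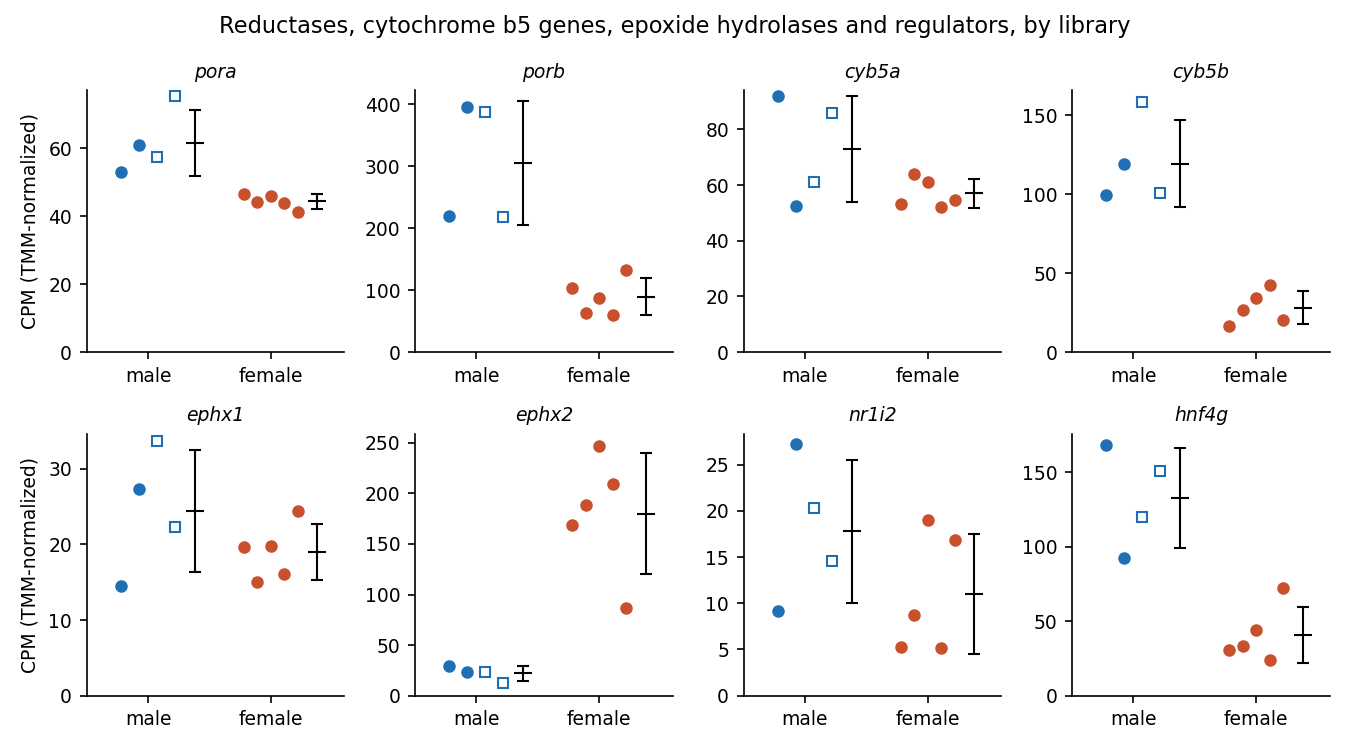
Level of reductases, cytochrome b5 genes, epoxide hydrolases and regulators in each library (TMM-normalized CPM, y axis), male left and female right. Filled circles are libraries, open squares the male libraries named with pkd1, and bars the mean ± SD over 4 male and 5 female libraries. Male and female libraries do not overlap for *pora*, *porb*, *cyb5b*, *ephx2* and *hnf4g*, with *ephx2* at 12.04 to 29.6 CPM in males and 86.5 to 247 CPM in females.

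Among receptors and factors that sense P450 substrates or act on P450 genes, 18 of 21 matched were tested, 2 rose (7.02% of all genes did) and 1 fell (6.2%). The aryl hydrocarbon receptor gene *ahr1a* had 29.8, 17.3, 58.9 and 64.2 CPM in males, against 0.807, 1.495, 0.266, 0.251 and 0.635 CPM in females (log2 fold change 5.95 ± 0.63, SE, edgeR adjusted p = 0.000491). All male libraries were above all female ones. The related *ahr2* fell, with 97.6, 120, 105 and 85.4 CPM in males, against 173, 177, 243, 191 and 137 CPM in females (log2 fold change -0.85 ± 0.19, SE, edgeR adjusted p = 0.0165). Without the pkd1-named males *ahr1a* kept its call (edgeR adjusted p = 0.0101), while *ahr2* lost it both without them (0.150) and without M1 and M2 (0.0735).

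The gene *hnf4g*, a nuclear receptor of kidney and gut epithelium, had 168, 92.5, 120 and 151 CPM in males, against 30.8, 33.2, 43.9, 24.0 and 72.2 CPM in females. It rose with no overlap, at a log2 fold change of 1.70 ± 0.32 (SE, edgeR adjusted p = 0.00667), and the adjusted p was 0.0677 without the pkd1-named males. The pregnane X receptor gene *nr1i2*, known to switch on family 3 genes in mammals, had 9.15 to 27.2 CPM in males, against 5.15 to 19.0 CPM in females, an overlap (edgeR adjusted p = 0.396).

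Family 1 P450 genes are the textbook targets of aryl hydrocarbon receptors. In edgeR 1 of the 5 rose (7.02% of all genes did) and none fell (6.2%). DESeq2 called 1 higher (9.75% of all genes) and 1 lower (9.11%). Their median log2 fold change was -0.18. The gene that rose was *cyp1c1*, with 5.64, 18.5, 20.5 and 23.3 CPM in males, against 7.79, 6.40, 6.88, 2.21 and 4.24 CPM in females, where M1 lay within the female range. Its log2 fold change was 1.63 ± 0.46 (SE, edgeR adjusted p = 0.0408), and only the fit without M1 among the 9 without 1 library kept the call (0.0506 to 0.108 in the others, and 0.325 without the pkd1-named males). Its sister gene *cyp1c2* had 21.9, 22.6, 26.0 and 11.3 CPM in males, against 24.5, 44.0, 49.7, 90.7 and 17.4 CPM in females, an overlap at a log2 fold change of -1.14 ± 0.45 (SE, edgeR adjusted p = 0.130). The gene *cyp1a*, the usual marker of receptor activity, had 112 to 213 CPM in males, against 32.5 to 172 CPM in females, at a log2 fold change of 0.60 (edgeR adjusted p = 0.389).

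Other cell types that a dissected kidney could carry were read by their markers. No hepatocyte gene of 11 tested, no interrenal (adrenal-like) gene of 10, no testis gene of 5 and no erythroid gene of 6 passed the adjusted p in edgeR. At an unadjusted p under 0.05 there were 2, 2, 1 and 2 of them in this order, against 26.8% of all genes. DESeq2 called 1 hepatocyte and 1 interrenal gene higher (9.75% of all genes) and no testis or erythroid gene. The log2 fold change was above 0 in 10 of the 11 hepatocyte genes and all 10 interrenal genes, against 48.2% of all genes tested. The medians were 1.74 and 1.52. The median hepatocyte sum was 169 CPM in males, against 350 CPM in females, and pkd1M4 alone was high among males. This order rests on *tfa*, which made up most of each female sum and had a log2 fold change of -1.28. For *apoa2* the levels were 119, 55.7, 142 and 501 CPM in M1, M2, pkd1M1 and pkd1M4. In F1, F2, F3, F4 and F6 they were 1.81, 67.0, 4.63, 1.18 and 1.44 CPM. Interrenal genes summed to 14.7, 504, 1105 and 71.5 CPM in M1, M2, pkd1M1 and pkd1M4, against 63.2 to 283 CPM in females. Erythroid genes summed to 9359 to 34021 CPM, against 14134 to 46978 CPM. Genes listed for testis summed to 9.77 to 23.7 CPM, against 5.52 to 32.9 CPM, with the highest sum in F1. That list holds *ddx4* and *piwil1*, which ovarian germ cells also express, and F1 had 18.0 and 8.21 CPM of them. In males *tekt1*, a gene of motile cilia, made up 5.26 to 13.5 CPM of the sum. Of 6 oocyte genes tested 2 fell, *zar1* and *zp2.2* (0 in DESeq2), against 6.2% of all genes in edgeR. These genes had at most 0.470 and 0.520 CPM in males, and passed the filter on low counts through the female libraries. All 8 oocyte genes summed to 2.12 to 3.73 CPM in males, against 4.08 to 1406 CPM in females. Of 5 genes listed for the intestine 2 rose (*fabp2* and *vil1*), against 7.02% of all genes. Sums of this list were 165 to 287 CPM in males, against 69.7 to 143 CPM in females. Most of that sum was *vil1*, with 131 to 267 CPM in males, against 50.3 to 111 CPM in females. Whether the *vil1* signal came from intestine or from kidney cells was not tested. Male and female libraries overlapped for *slc15a1b*, *rbp2a* and *cdx1b*. The log2 fold change was 3.67 for *fabp2*, 1.15 for *slc15a1b*, 0.15 for *rbp2a* and 0.07 for *cdx1b*. No marker of these lists was at 0 in all 9 libraries, and their part in the P450 values was not tested.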

How the data were processed

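Kidney RNA, isolated with Trizol, was made into TruSeq libraries and sequenced as paired-end reads. The authors assigned reads to transcripts with Kallisto and used tximport for sums per gene. The methods name length-scaled TPM, while the column names say scaledTPM, so which form was used is unclear. The deposited values are read here as estimated counts, and are whole numbers. The methods name GRCz11 with Ensembl release 101, while the labels name GRCz10. Coordinates are those of the deposited table, taken as GRCz11 from the methods. Libraries pkd1M1, pkd1M4 and F6 could be tied to a sex but not to 1 sample. All pairs within a sex differed by more than sampling noise.

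Genes were filtered with filterByExpr, normalized with TMM and tested with edgeR 4.0.16 in R 4.3.3 with p-values adjusted over 22148 genes. DESeq2 1.42.0 was an alternative. Every P450 gene is named, those with an adjusted p under 0.05 and the 5 with the highest mean CPM in every library. Of the list genes, those with an adjusted p under 0.05 are named, and others shown were chosen after their values were seen. The members and lists were chosen with earlier results of these data known. Of the 52 genes, 51 were found in the gene name table. Figures were drawn with matplotlib 3.10.9.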

Additional observations from a re-analysis of the deposited data

Results flagged for a closer look

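Within each sex, the highest or lowest library of a P450 gene stood far from the others, by Dixon's criterion at 95%, in 15 of the 90 groups examined (16.7%). The same criterion was met in 9.73% of groups over all genes tested, and chance gives about 1 in 20 for normally distributed values. In F6, the value met this criterion as the highest female value in 6 genes, of which 5 belong to *cyp2k*. It was 196 CPM for *cyp2k6* ENSDARG00000009874, against 6.56 to 35.2 CPM in the others, and 46.7 CPM for *cyp2k6* ENSDARG00000098995, against 0.223 to 2.06 CPM. It was 43.2 CPM for *cyp2k8*, against 16.2 to 21.1 CPM, 13.6 CPM for *cyp2k16*, against 0.0456 to 3.54 CPM, and 7.18 CPM for *cyp2k18*, against 0.0242 to 1.75 CPM. For *cyp2aa1* F6 had 6.98 CPM, against 1.84 to 3.21 CPM.

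In F4, *cyp4v8* had 1.57 CPM, against 0 to 0.436 CPM in the other females, and *cyp3c3* ENSDARG00000037873 had 6.86 CPM, against 1.72 to 3.17 CPM. In F1, *cyp2r1* had 6.10 CPM, against 0 to 0.601 CPM, and *cyp2ad2* had 6.54 CPM, against 17.7 to 21.2 CPM. In F3, *cyp2x10.2* ENSDARG00000068283 had 6.78 CPM, against 0 CPM in the other females.

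Among males, pkd1M4 had 76.2 CPM of *cyp3c1*, against 51.5 to 52.0 CPM in the others, and 4.77 CPM of *cyp3a65*, against 0 to 0.385 CPM. The level of *cyp2ad6* in pkd1M1 was 2.65 CPM, against 4.27 to 4.40 CPM in the other males. M1 had 20.7 CPM of *cyp2aa6*, against 8.91 to 9.87 CPM.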

How the results depend on the processing

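No P450 gene that rose or fell changed the sign of its fold change under any alternative run. RLE size factors, no filter beyond a count above 0 and a minimum of 10 counts in every library kept all counts of calls within 1.5 times. A log2 fold limit of 1 gave 1211 genes higher and 1075 lower over the table, and a linear limit of 1.5 gave 1537 and 1362 (771 and 677 as reported), with 5 P450 genes higher. The Wald test of DESeq2 called 11 P450 genes higher by adjusted p and 5 by both thresholds, and over all genes 2160 and 957 (1554 and 771 as reported).

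Leaving out 1 library gave 600 to 944 genes higher and 486 to 763 lower past both thresholds, and 1069 to 1819 and 834 to 1524 by adjusted p. It gave 2 to 5 P450 genes higher past both thresholds and 3 to 9 by adjusted p, the most without F6 and the fewest by adjusted p, 3, without M1, M2, F2 or F4. It gave 0 to 1 lower by either rule. Without the males named with pkd1, 375 and 260 genes passed both thresholds, and 538 and 321 the adjusted p (1554 and 1374 as reported), with 2 P450 genes higher and 0 lower. Without M1 and M2, an alternative added after seeing the data, 832 genes were higher and 757 lower by adjusted p, with 2 P450 genes higher and 0 lower by adjusted p, and 1 and 0 past both thresholds.

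The labels do not say whether libraries with the same number in both sexes share more than that number. Their deviations from the mean of their sex correlated at 0.0279 for number 1 and -0.0381 for number 2. For M1 with F2 and M2 with F1 the values were 0.0341 and -0.00212. So few pairs cannot show whether a preparation was shared. With the replicate block on these 4 libraries, 478 genes were higher and 381 lower past both thresholds, and 510 and 395 by adjusted p, with 3 P450 genes higher by adjusted p (*cyp2k22*, *cyp2n13* and *cyp2x10.2* ENSDARG00000068283) and 0 lower. The same 4 libraries without the block, also added later, gave 237 and 118, 242 and 121 by adjusted p, with 1 P450 gene higher and 0 lower by either rule. Levels per coding length and comparisons of sequences were not run. Genes under about 100 counts rest on few reads.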
